A study of Mus musculus with 6 samples.

Results

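The myogenic regulatory factors and the MEF2 factors are the transcription factors that commit cells to muscle and drive their differentiation. The 7 genes described here, Myf5, Myod1, Myog, Myf6, Mef2a, Mef2c and Mef2d, were taken as a list by gene symbol out of 55536 genes counted. The rule uses no measured value, but the list was drawn up with earlier results of these data known. All 7 passed the filter on low counts, which kept 22404 genes.

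Satellite cells are the stem cells of skeletal muscle, and their RNA was sequenced after injury of the tibialis anterior in adult male C57BL/6J mice. The 3 control samples carried Pax7CreErt2;Hira fl/+, labelled WT in the sample labels, and the 3 cKO samples carried Pax7CreErt2;Hira fl/fl. HIRA is a chaperone that places the histone variant H3.3 on chromatin. Mice of both genotypes carry the tamoxifen-inducible Cre expressed from Pax7, and were fed tamoxifen before the injury with BaCl2. The controls are thus treated mice with 1 floxed allele, not untreated wild type. Cells were sorted 5 days post-injury as CD34+ and ITGA7+, and negative for CD45, TER119 and SCA1, and were then cultured for 48 h at low density in medium with a high serum content. The paper describes 3 independent RNA samples per group, but the sources used here do not state a separate mouse for each. The p-values thus measure only the spread between these samples, which may be technical in part. Counts on genes totalled 47944477 to 63323577 per sample. The level of Hira itself, in CPM (counts per 1000000 counts of a sample), was 5.50 to 6.63 in control and 3.36 to 4.95 in cKO (log2 fold change -0.43, standard error 0.12, edgeR adjusted p = 0.0237). Hira was lower in every cKO sample but still counted. Its adjusted p was 0.104 without control replicate 1, and its log2 fold change was -0.29 without cKO replicate 1. In addition, 44.7% of its exonic bases are shared with a readthrough gene on the same strand. For satellite cells of these genotypes the paper reports a sharp drop of Hira RNA in cKO by RT-qPCR. That drop was much larger than the 25.4% by which the mean CPM was lower here. For those cells the paper mentions the tamoxifen diet but neither injury nor culture, so they may not be the same material. The paper also reports that no HIRA protein could be detected in them.

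The myogenic regulatory factors are basic helix-loop-helix proteins that bind E-boxes in DNA together with an E protein partner. Myf5 and Myod1 mark the committed myoblast, Myog starts terminal differentiation and Myf6, also called MRF4, acts late and in mature fibres. MEF2 proteins bind an A/T-rich site through a MADS domain, have no myogenic activity of their own in most cells, and amplify the action of the myogenic factors on muscle genes, including Myog and Mef2c themselves. Inhibitors such as ID proteins, which sequester E proteins, and class IIa histone deacetylases, which bind MEF2, hold the circuit in check in proliferating cells.

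The sequences before the start sites of Myog and Mef2c are shown because they carry the letters of both kinds of binding site in this circuit, and that of Myf5 as an example with neither. RefSeq (build GRCm38.p6, the same build as mm10) had an entry for 5 of the 7 genes, which are Myf5, Myog, Mef2a, Mef2c and Mef2d, with 7 windows in all. Each sequence runs 5′ to 3′ on the strand of the gene and ends before the first base that GENCODE annotates, which leaves 235 bases for Myog and 250 for the others. The windows are chr1:134289754-134289988 on the plus strand for Myog, chr13:83503784-83504033 on the plus strand for Mef2c and chr10:107486135-107486384 on the minus strand for Myf5. Capitals mark E-boxes (CANNTG, which reads the same on both strands) and MEF2 sites (10 bases, with TA, 4 bases that are A or T, and TA between any outer bases, also the same on both strands). The marked sites do not overlap.
Myog: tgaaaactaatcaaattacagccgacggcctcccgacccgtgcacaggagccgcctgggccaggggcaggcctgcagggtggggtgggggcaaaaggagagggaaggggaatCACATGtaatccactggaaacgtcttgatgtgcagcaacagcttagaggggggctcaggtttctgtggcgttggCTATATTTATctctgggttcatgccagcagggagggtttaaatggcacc
Mef2c: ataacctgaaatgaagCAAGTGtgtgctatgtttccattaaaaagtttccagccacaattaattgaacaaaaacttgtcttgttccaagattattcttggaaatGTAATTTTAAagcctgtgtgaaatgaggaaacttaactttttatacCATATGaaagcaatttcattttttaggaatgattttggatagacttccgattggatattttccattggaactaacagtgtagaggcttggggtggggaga
Myf5: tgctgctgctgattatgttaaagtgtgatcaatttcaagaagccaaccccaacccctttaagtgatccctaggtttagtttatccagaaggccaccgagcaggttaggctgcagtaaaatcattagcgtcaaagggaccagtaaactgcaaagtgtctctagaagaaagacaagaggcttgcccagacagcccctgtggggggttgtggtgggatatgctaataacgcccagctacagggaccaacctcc
The windows of Mef2a and Mef2d also held neither motif, and the windows at the other starts of Mef2c held no MEF2 site. In Myog the E-box CACATG begins 123 bases and the MEF2 site CTATATTTAT 49 bases before the end of the window. In Mef2c the E-boxes CAAGTG and CATATG begin 234 and 100 bases before its end, and the MEF2 site GTAATTTTAA 146 bases before it. Of 32851 RefSeq windows of 250 bases, 66.2% held an E-box, 8.48% a MEF2 site and 5.84% both. With the outer bases of the MEF2 site held to a pyrimidine and a purine, 2.92% of windows matched and 0 of the 7 windows of these genes did. The outer bases were left free after the Myog window had been seen. These are matches of letters in short windows, and binding was not measured in them.

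Among the myogenic regulatory factors, the commitment factors Myf5 and Myod1 and the differentiation factor Myog fell in cKO, while Myf6 did not pass the test. Differences were tested with edgeR's quasi-likelihood test on the raw counts, with Benjamini-Hochberg adjustment over the 22404 genes, of which 6.46% were called lower in cKO.
Myf5 (ENSMUSG00000000435, chromosome 10, 107482908 to 107486134) is the first of the factors to appear in the embryo and is already transcribed in many quiescent satellite cells. It was at 67.5, 69.9 and 68.1 CPM in control replicates 1, 2 and 3 and at 53.7, 53.2 and 54.7 CPM in cKO replicates 1, 2 and 3. The groups were far apart and each was tight. The mean fell by 21.4%, from 68.5 ± 1.26 to 53.9 ± 0.750 CPM (SD, n = 3 each), and the log2 fold change was -0.37 ± 0.03 (SE, adjusted p = 1.9e-06).
Myod1 (ENSMUSG00000009471, chromosome 7, 46376474 to 46379099) rises when satellite cells are activated and opens chromatin at muscle genes. Its level was 788, 770.2 and 761 CPM in control and 694, 732 and 688 CPM in cKO. The groups did not overlap, and cKO replicate 2 lay nearest to the controls. The mean was 8.85% lower in cKO (log2 fold change -0.16 ± 0.03, SE, adjusted p = 0.00225).
Myog (ENSMUSG00000026459, chromosome 1, 134289989 to 134292548) encodes myogenin, which is needed for myoblasts to form fibres. It was at 2128, 2112 and 2096 CPM in control and 1953, 1831 and 1843 CPM in cKO. The highest cKO sample was replicate 1, which stayed below all controls. The mean was 11.2% lower in cKO (log2 fold change -0.20 ± 0.03, SE, adjusted p = 0.000626).
Myf6 (ENSMUSG00000035923) lies on chromosome 10 from 107492853 to 107494737, 6718 bases from Myf5 and on the same strand. It had 11.04, 11.12 and 10.72 CPM in control and 11.5, 9.69 and 9.76 CPM in cKO. The groups overlapped, since cKO replicate 1 was above every control and the other cKO samples below every control. The log2 fold change was -0.12 (95% interval -0.27 to 0.03, adjusted p = 0.316), so that neither no change nor a fall as large as that of Myog lies outside the interval. Without cKO replicate 1 it was -0.20 (adjusted p = 0.0359). Myf6 was also the least precisely measured, with 551 to 704 counts per sample and a coefficient of variation of 9.90% in cKO.

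**Figure D1:**
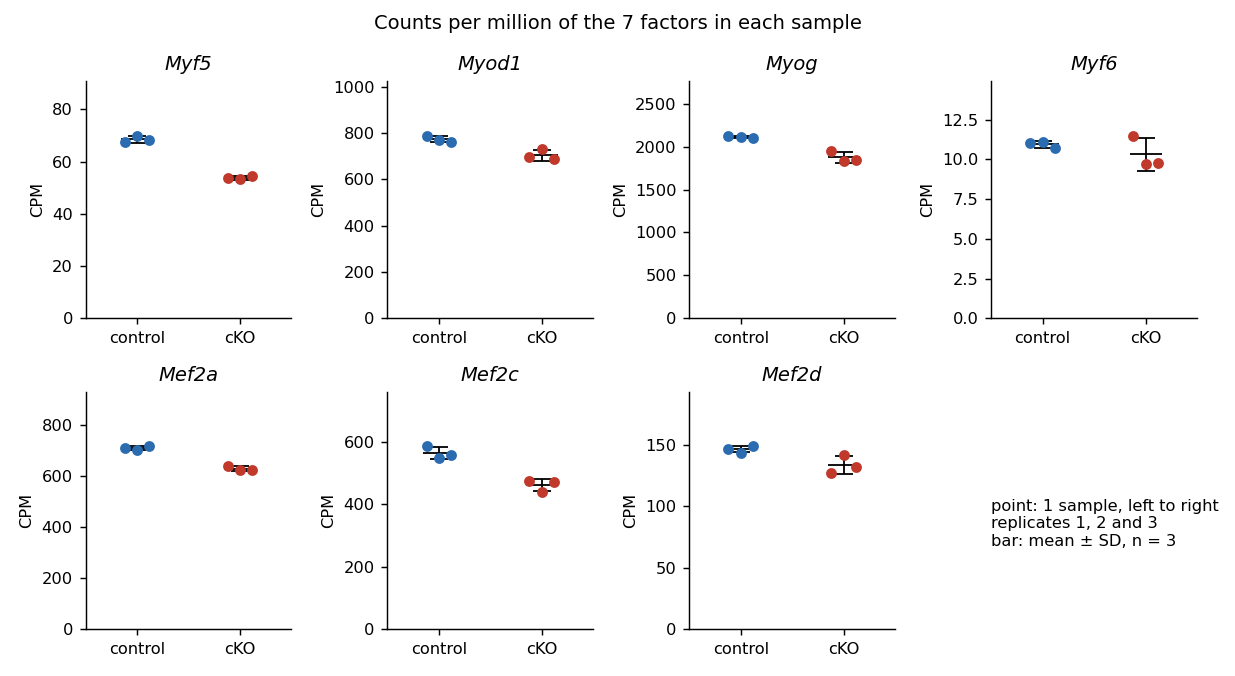
Levels in CPM (vertical axes from 0) of the 7 factors in 3 control (blue) and 3 cKO (red) samples, with the mean ± SD of each group in black. The cKO points lie below all control points for every factor but Myf6, and the gap is widest against the spread for Myf5 (53.2 to 54.7 against 67.5 to 69.9 CPM).

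All 3 MEF2 genes fell in cKO, and Mef2c had the lowest log2 fold change. Its 95% interval (-0.39 to -0.23) overlapped that of Mef2a (-0.26 to -0.14), and the ratio of these 2 was not tested.
Mef2c (ENSMUSG00000005583, chromosome 13, 83504034 to 83667080) is induced in differentiating muscle and maintains the sarcomere, and it also acts in heart, endothelium, myeloid cells and neurons. Its level was 585, 549.7 and 557 CPM in control and 473, 439.5 and 472 CPM in cKO. All cKO samples were lower, by at least 76.5 CPM. The mean went from 564 ± 18.8 to 462 ± 19.1 CPM (SD, n = 3 each), which is 18.1% lower (log2 fold change -0.31 ± 0.04, SE, adjusted p = 3.1e-05).
Mef2a (ENSMUSG00000030557, chromosome 7, 67231163 to 67372858) is expressed in many tissues and takes part in muscle regeneration. It was at 713, 702 and 717 CPM in control and at 641, 626 and 623 CPM in cKO. The groups were separate, and the mean was 11.4% lower in cKO (log2 fold change -0.20 ± 0.03, SE, adjusted p = 0.000202).
Mef2d (ENSMUSG00000001419, chromosome 3, 88142372 to 88172086) is expressed before and during differentiation. It was at 147, 144 and 149 CPM in control and at 128, 142 and 132 CPM in cKO. The highest cKO sample, replicate 2, was only 2.15 CPM below the lowest control. The mean was 8.76% lower in cKO (log2 fold change -0.16 ± 0.04, SE, adjusted p = 0.00765), and without control replicate 3 the adjusted p was 0.0498.
The fourth gene of the family, Mef2b, which is best known from B cells, was not in the list of 7. It had 4 to 10 counts per control sample and 6 to 8 per cKO sample and did not pass the filter.

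In all, 6 of the 7 factors were lower in cKO and 0 were higher at an adjusted p under 0.05 with edgeR. DESeq2 also called 6 lower and 0 higher, and 0 were higher at an unadjusted p under 0.05. Of all genes tested, 6.46% were called lower, 9.38% higher and 15.8% either way. Among the 10294 genes counted at least as highly as Myf6, 11.6% were called lower. The samples of the 2 groups did not overlap, with all cKO values lower, for 6 of the 7 factors. This was so for 11.1% of all genes, and for 16.3% of those counted at least as highly as Myf6. All cKO values were higher for 0 of the 7 factors and for 20.3% of all genes. The median log2 fold change was -0.20 over the 7 factors and -0.0011 over all genes tested. The median over the 1448 genes called lower was -0.20 as well, and Myf5 ranked 234 among them by the size of its fall. In bulk RNA, fewer myogenic cells in a sample and less of these RNAs per cell cannot be told apart.
None of the 7 genes shares exonic bases with another gene on its strand. On the opposite strand 8.87% of the exonic bases of Mef2d overlap 1700113A16Rik and 2.06% of those of Mef2a overlap Lysmd4, and the strand setting of the counting is not given in the sources used here. Windows of 75 bases, the length of a read, were not shared with the transcripts of any other gene for Myf5, Myod1, Myog, Myf6 and Mef2c, so the paralogs could be counted apart.

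**Figure D2:**
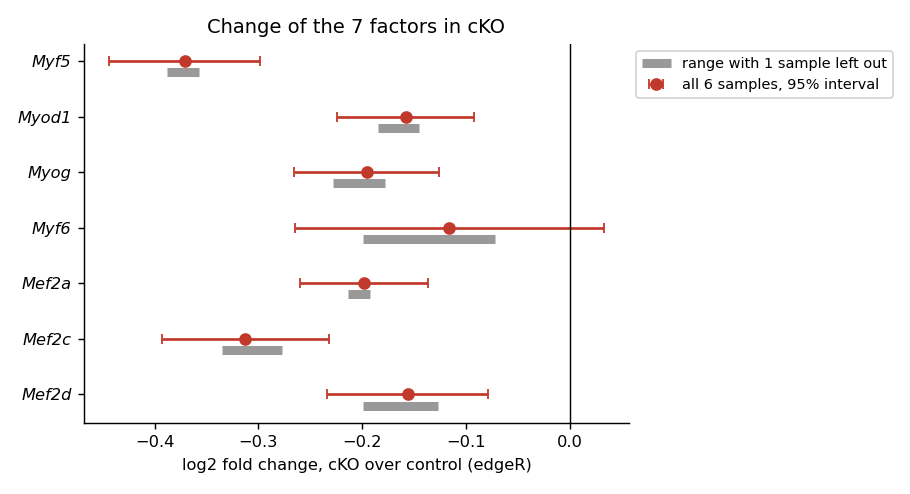
Log2 fold change of cKO over control for each factor from edgeR's quasi-likelihood test (red points, all 6 samples, with 95% intervals) and the range of the value with each sample left out in turn (grey). The intervals lie below 0 for every factor but Myf6 (-0.27 to 0.03), and Myf5 and Mef2c lie farthest to the left.

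Taken in the order in which the factors act, from commitment to differentiation, the log2 fold changes were -0.37 for Myf5, -0.16 for Myod1, -0.20 for Myog, -0.31 for Mef2c and -0.12 for Myf6. These point values did not rise or fall steadily along that order. The 95% intervals of Myod1 (-0.22 to -0.09), Myog (-0.27 to -0.13) and Myf6 (-0.27 to 0.03) overlapped, so the order among them is not settled. Whether 2 factors changed unequally was tested on the ratio of their counts within a sample, which does not depend on scaling, for 6 pairs. An exact two-sided permutation test of 3 samples against 3 cannot give a p below 0.1, so no pair could pass 0.05.
For Myf5 against Myod1, the ratio was 0.0857, 0.0908 and 0.0895 in control and 0.0774, 0.0727 and 0.0795 in cKO. Every cKO ratio was lower, by -0.21 on the log2 scale (exact permutation p = 0.1, adjusted over the 6 pairs 0.15). Myog counts were 30.2 to 31.5 times those of Myf5 in control and 33.7 to 36.3 times in cKO, again without overlap (log2 difference 0.17, exact permutation p = 0.1, adjusted 0.15).
In contrast, the ratio of the differentiation factor Myog to the commitment factor Myod1 was 2.70, 2.74 and 2.76 in control and 2.81, 2.50 and 2.68 in cKO. The groups overlapped, with a log2 difference of -0.038 (exact permutation p = 0.6, adjusted 0.7). The ratio of Myf6 to Myog differed by 0.08 on the log2 scale (exact permutation p = 0.1, adjusted 0.15) and by 0.03 without cKO replicate 1. Its highest control value, 0.00526, and its lowest cKO value, 0.00529, were closer than the counting error of Myf6 (4.05%).
Within the MEF2 family, Mef2c counts were 3.98, 3.82 and 3.74 times those of Mef2d in control and 3.71, 3.10 and 3.58 times in cKO, with all cKO ratios lower (log2 difference -0.16, exact permutation p = 0.1, adjusted 0.15). Without cKO replicate 2 this difference was -0.078. The ratio of Mef2a to Mef2d overlapped between the groups (log2 difference -0.040, exact permutation p = 0.7, adjusted 0.7).

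Levels of different genes were compared as CPM per kilobase of exonic bases. Myog was the most abundant of the 7, at 1413 ± 10.6 in control and 1254 ± 44.9 in cKO (SD, n = 3 each). Myod1 followed at 415 ± 7.42 and 379 ± 12.8. The other factors were far lower on this scale. Mef2a was at 48.4 ± 0.532 in control, Mef2c at 35.9 ± 1.20, Myf5 at 32.9 ± 0.606 and Mef2d at 24.5 ± 0.424. Myf6 was lowest, at 8.68 ± 0.167 in control and 8.17 ± 0.809 in cKO. The cells thus held RNA of the differentiation factor Myog at 3.36 times the level of Myod1, although they were kept in high-serum medium. Within each group no neighbours in this order had overlapping samples, and the order was the same in control and cKO.
The order depends little on how length is set, but the values of the MEF2 genes do. Mef2a has 12 annotated transcripts and Mef2c 31, and their exons together span 14681 and 15715 bases, against 5538 and 6277 bases for the longest transcript. With the longest transcript as the length, Mef2a was at 128 and Mef2c at 89.8 CPM per kilobase in control, while Myog, Myod1, Myf5 and Myf6, with 1 transcript each, did not move. The cKO samples of Myf5 and Mef2d then overlapped. The reads were aligned without splitting over introns, so reads across exon junctions are missing. With length counted as 75-base windows inside exons, the order of the 7 was again the same.

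**Figure D3:**
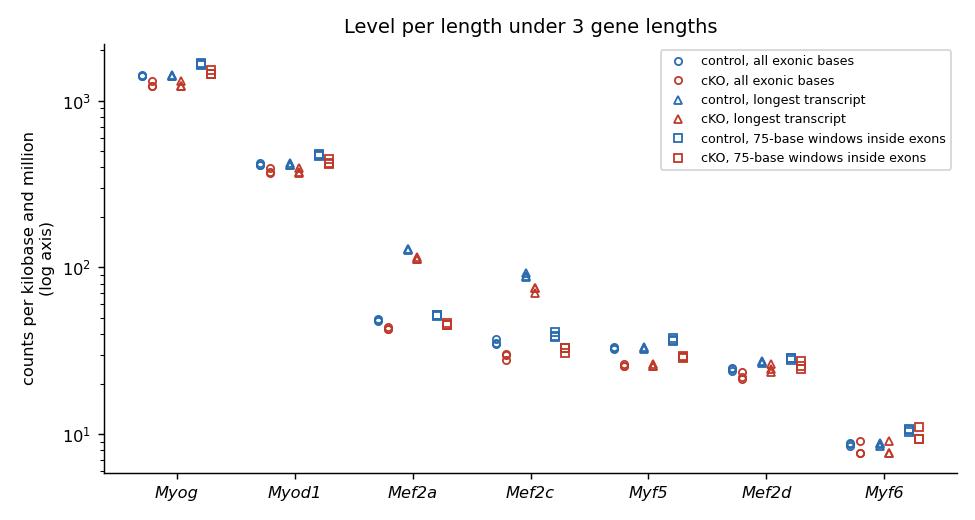
CPM per kilobase (log axis) of each factor in each control (blue) and cKO (red) sample, with the length taken as all exonic bases (circles), the longest transcript (triangles) or 75-base windows inside exons (squares). Myog lies above all other factors and Myf6 below, and only Mef2a and Mef2c move markedly with the choice of length.

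The genes around the factors were read from lists written by hand. The E proteins Tcf3, Tcf4 and Tcf12, the binding partners of the myogenic factors, were not called, with log2 fold changes from -0.10 to -0.07. By edgeR, 0 of the 3 passed an adjusted p of 0.05 and 3 had an unadjusted p under 0.05, all lower. DESeq2 called 0, and 1 was called lower by edgeR without cKO replicate 2 or without cKO replicate 3.
Of 8 upstream regulators, 5 fell and 1 rose, beside 6.46% and 9.38% of all genes. Eya4, a transcriptional cofactor at myogenic promoters, fell from 223 ± 3.29 to 196 ± 2.91 CPM (log2 fold change -0.20). Pax7, the factor that defines satellite cells, fell from 39.3 ± 0.748 to 35.1 ± 2.08 CPM (-0.19). Dmrt2, an activator of Myf5 in the embryo, fell from 18.7 ± 0.0400 to 16.8 ± 0.675 CPM (-0.18). Its adjusted p was between 0.0538 and 0.0768 without any 1 control replicate or without cKO replicate 3. Without control replicate 1, control replicate 3 or cKO replicate 3, 3 upstream regulators were called lower. The exception was Eya2, which rose from 3.45 ± 0.102 to 4.75 ± 0.548 CPM (0.44).
Targets of the myogenic and MEF2 factors were mostly lower. Of 24 such genes, all of them tested, 15 fell and 0 rose with edgeR, beside 6.46% of all genes called lower and 11.6% of those counted at least as highly as Myf6 (14 and 0 with DESeq2, and 0 higher at an unadjusted p under 0.05), with a median log2 fold change of -0.18. The count of targets called lower was 10 without control replicate 1 and 20 without cKO replicate 1. The largest falls were Myl4, an embryonic and atrial myosin light chain, from 1058 ± 24.5 to 840.3 ± 84.5 CPM (-0.36), Xirp1, an actin-binding protein of growing muscle, from 604 ± 12.9 to 501 ± 23.0 CPM (-0.29), and Mymx, a fusion protein of myoblasts, from 64.0 ± 1.49 to 53.2 ± 1.76 CPM (-0.29).
Inhibitors of the circuit went both ways. Of 19, 5 rose, 4 fell and 10 were not called, beside 9.38% of all genes called higher and 6.46% lower. The largest rises were in genes of low level. Twist1, which binds E proteins and blocks MyoD, rose from 2.31 ± 0.244 to 6.02 ± 0.128 CPM (log2 fold change 1.36), and its paralog Twist2 from 14, 20 and 18 counts to 27, 42 and 39 counts (1.18). Id4 rose from 11.9 ± 0.141 to 19.1 ± 1.16 CPM (0.66). The other ID genes had higher levels and did not rise. Id2 fell from 126 ± 0.938 to 118 ± 2.09 CPM (-0.12, adjusted p = 0.0135 from edgeR). Id1 (182 CPM in control, -0.06) and Id3 (146 CPM in control, -0.06) were not called. Of those that fell, Hey1, a target of Notch signalling, went from 11.01 ± 0.323 to 8.19 ± 0.220 CPM (-0.45) and Bhlhe41, a repressor of MyoD activity, from 46.3 ± 0.430 to 41.9 ± 0.342 CPM (-0.17). The class IIa deacetylases differed in direction. Hdac7 rose from 21.2 ± 1.27 to 28.2 ± 2.67 CPM (0.39, adjusted p = 0.000387 from edgeR), and Hdac4 (0.03) and Hdac9 (-0.19) were not called. The fall of Hdac5 was small (-0.13, adjusted p = 0.0236 from edgeR) and was not called with total-count scaling or without control replicate 1 or 2 or cKO replicate 2 or 3 (adjusted p = 0.0512 to 0.132). Without control replicate 1 or 2, or without cKO replicate 3, 2 inhibitors were called lower in place of 4.
Of 12 coactivators, 2 fell and 0 rose with edgeR, near the 11.6% called lower among genes counted at least as highly as Myf6. DESeq2 also called 2 lower and 0 higher, and at an unadjusted p under 0.05, 5 were lower and 1 was higher. Ep300, the acetyltransferase p300, fell from 55.7 ± 2.05 to 48.7 ± 1.27 CPM (-0.22). Setd7, a methyltransferase that acts with MyoD, had -0.11 (adjusted p = 0.0389) and was not called in 6 of the 11 alternatives (adjusted p = 0.0589 to 0.172), among them the omission of control replicate 1, control replicate 3, cKO replicate 1 or cKO replicate 3. With total-count scaling 1 coactivator was called in each direction. Without the filter 4 were called lower, and without control replicate 1, control replicate 3 or cKO replicate 3, 1 was.

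**Figure D4:**
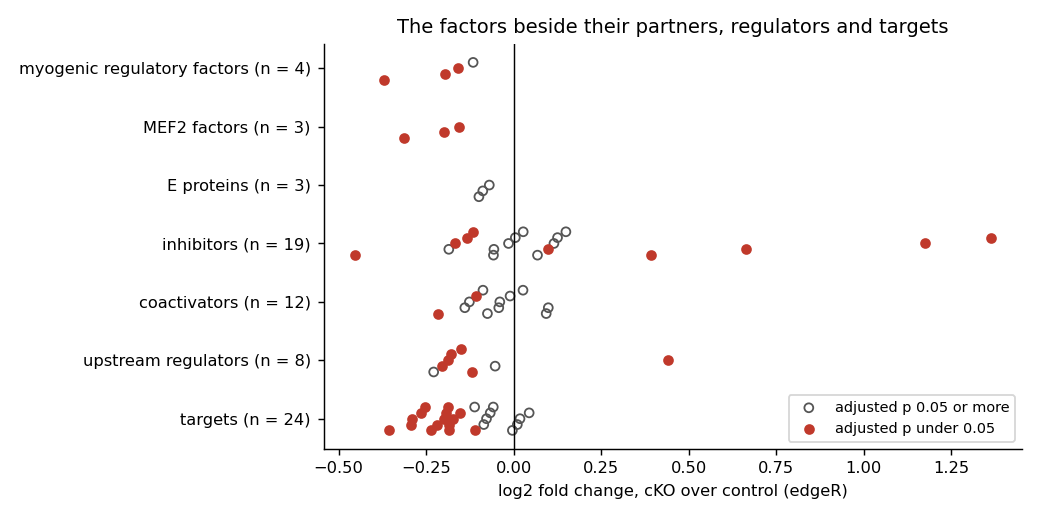
Log2 fold change of cKO over control (edgeR) for each tested gene of the 7 lists, with filled red points for an adjusted p under 0.05 and open points for the rest. Factors and targets lie mostly left of 0, E proteins just left of it without a call, and the inhibitors spread from -0.45 to 1.36.

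Markers of cell types were examined beside these changes, because those of other cell types moved with genotype. The counts of markers called stand beside 6.46% of all genes called lower and 9.38% called higher. Among genes counted at least as highly as Myf6, 11.6% were called lower. The 6 satellite cell and myoblast markers were present in all samples, at 1 CPM or more in control, and summed to 4171 to 4249 CPM in control and 3701 to 4079 CPM in cKO. Of these, 4 fell, with Pax7 (-0.19), Vcam1 (-0.19) and Des (-0.15) falling most. The other 2, Cdh15 (0.04) and Sdc4 (0.06), lay above 0 and were not called. Des was not called without any 1 control replicate (adjusted p = 0.0509 to 0.0594). Of the 6 muscle fibre markers, 5 were tested and 3 fell, Myh2 (-0.36), Myh1 (-0.21) and Ckm (-0.19). Myh1 was not called with DESeq2, without any 1 control replicate or without cKO replicate 3 (adjusted p = 0.0570 to 0.142), and had a log2 fold change of -0.13 without cKO replicate 2. Ckm lost its call (adjusted p = 0.0626) when control replicate 1 was omitted.
The macrophage markers summed to 107 to 112 CPM in control and 229 to 268 CPM in cKO. All 8 rose, beside 9.38% of all genes called higher, with Lyz2 (1.18), C1qa (1.12) and Adgre1 (1.11) rising most. Ptprc, which encodes the CD45 used to exclude cells in the sort, had 1.43 ± 0.137 CPM in control samples and 2.83 ± 0.184 CPM in cKO samples. Ly6a, which encodes the SCA1 used in the same way, had 3.04 ± 0.166 and 3.66 ± 0.241 CPM and was not called (adjusted p = 0.115, edgeR). Fibroblast markers summed to 145 to 148 CPM and 338 to 387 CPM, and 3 of the 5 tested rose, Col1a1 (1.29), Pdgfra (1.145) and Dcn (1.10). In control, 3 of the 6 fibroblast markers were at 1 CPM or more, and Lum was near 0 in both groups (0.0172 and 0.140 CPM). Endothelial markers summed to 10.1 to 10.9 CPM and 12.3 to 16.7 CPM, with 3 of 6 at 1 CPM or more in control. Of the 6, 3 rose, Kdr (0.78), Cdh5 (0.47) and Pecam1 (0.34). Emcn (0.31), Tek (0.09) and Tie1 (-0.11) were not called. The call of Cdh5 was lost without any 1 control replicate or without cKO replicate 2 (adjusted p = 0.0653 to 0.177), and its log2 fold change was 0.22 without the latter. That of Pecam1 was lost with DESeq2, RLE scaling or the replicate block, and without control replicate 2 or 3 or cKO replicate 2 or 3 (adjusted p = 0.0509 to 0.184). Smooth muscle and pericyte markers summed to 3145 to 3199.9 CPM and 3438 to 3583 CPM, and all 6 rose, led by Cnn1 (1.21), Myh11 (0.98) and Rgs5 (0.64). Apart from the contractile and pericyte genes, these lists held a small share of the RNA in both groups. Most of a sum often came from a single gene. In control, Acta2 was at 2929 CPM (log2 fold change 0.09), Col1a1 at 120 CPM, Lyz2 at 80.4 CPM and Des at 3199 CPM. The sums are thus no measure of the share of cells of each type. Mef2a, Mef2c, Mef2d and the Twist genes are also expressed in these other cell types. The part of such cells in the changes was not tested. The paper proposes instead that satellite cells without Hira themselves express genes of other lineages. It reports higher Cdh5 and Pdgfra by RT-qPCR, and staining for VE-cadherin, the product of Cdh5, in satellite cells of cKO mice. Which cells carried these RNAs was not tested here.
Relative to the mean log2 CPM of the 6 satellite cell markers in the same sample, a scaling chosen after seeing the data, the difference in log2 CPM was -0.28 for Myf5, -0.22 for Mef2c, -0.11 for Mef2a and -0.10 for Myog. For these 4 genes all cKO samples stayed below all controls (exact permutation p = 0.1, the smallest the design allows, so none could pass 0.05). Des and Cdh15 among these markers are also in the target list and Pax7 is in the upstream list, so the scale is not independent of the circuit. It was -0.07 for Myod1 (exact permutation p = 0.2), -0.07 for Mef2d (0.3) and -0.02 for Myf6 (0.9), and these groups overlapped. The marker mean itself was 0.07 lower in cKO on the log2 scale (7.77 against 7.70).

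**Figure D5:**
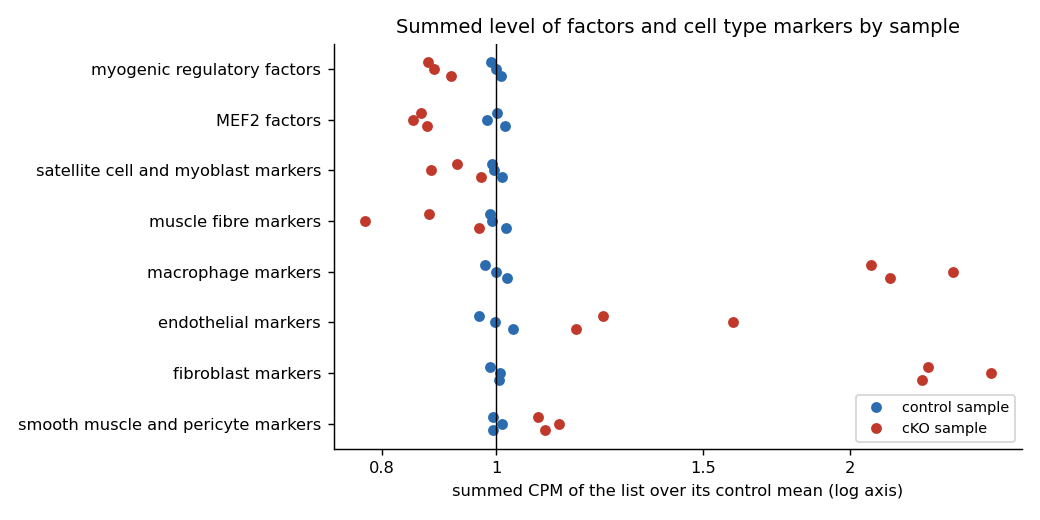
Summed CPM of each list in each control (blue) and cKO (red) sample, divided by the control mean of the list (log axis). The factors and the muscle markers lie below 1 in every cKO sample, while the macrophage and fibroblast markers lie above 2. Des, Acta2, Col1a1 and Lyz2 make up most of the sums of their lists.

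The genes whose log2 CPM followed each factor most closely over the 6 samples, among 15222 genes with a mean count of at least 100, are given as a description. The 6 points fall into the 2 genotypes, and all genes share the same libraries and depths. For Myf5 they were Sspn (r = 0.999) and Cnr1 (0.997), for Myod1 Tnrc6b (0.995) and Arhgap19 (0.994), and for Myog Mtmr1 (0.999) and Gnao1 (0.996). Mef2c was closest to Sntb1 (0.999) and Gfod1 (0.999), Mef2a to Zfp365 (0.998) and Anxa8 (0.998), and Mef2d to Esr1 (0.994) and Bmp2k (0.994). For Myf6 they were the processed pseudogene Tpi-rs9 (0.998) and Ttc1 (0.995). Sspn and Sntb1 encode sarcospan and a syntrophin, both of the dystrophin-associated complex of the muscle membrane. Whether the genes listed share a function was not tested.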

How the data were processed

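RNA was measured in 3 control and 3 cKO samples. Libraries were made from 400 ng of total RNA with a stranded kit after removal of ribosomal RNA and sequenced as single-end reads of 75 bp. The authors aligned reads to mm10 with Bowtie2 2.3.4.2 and deposited raw counts per gene from featureCounts 1.6.3. The deposited normalized counts and the authors' comparison table (a mean, fold change, standard error and p-values from DESeq2 2.11.40.6) were not used. GENCODE M21, on the same build, held each of the 55536 gene identifiers and gave symbols, coordinates and lengths.

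Counts were tested with edgeR 4.0.16 in R 4.3.3 (filterByExpr, TMM, quasi-likelihood test, genotype as the only term, Benjamini-Hochberg adjustment, threshold 0.05), after a check on simulated counts. Standard errors were derived from the F statistic. CPM were counts divided by the total counts of a sample times 1000000. The coefficient of variation between replicates was 3.92%, and counting error was 0.295% to 4.05% for the 7 genes. DESeq2 1.42.0, RLE and total-count scaling, no filter, a replicate block and omission of each sample were the alternatives. Replicates of a group differed by more than sampling noise. Named genes are the 7, Hira, Mef2b and the 2 genes most alike to each factor. Up to 3 largest called rises and falls of each list are also named. Ptprc, Ly6a, Lum, Cdh15, Sdc4, the E proteins, Id1, Id2, Id3, Hdac4, Hdac7 and Hdac9 were added after their values were seen. The members and lists were chosen with earlier results of these data known. Python 3.11.15 with scipy 1.17.1 and matplotlib 3.10.9 was used.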

Additional observations from a re-analysis of the deposited data

How the results depend on the processing

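Myf5, Myod1, Myog, Mef2a, Mef2c and Mef2d were called lower in cKO under all 11 alternatives to the main test. The log2 fold changes ranged from -0.39 to -0.35 for Myf5, -0.34 to -0.28 for Mef2c, -0.21 to -0.17 for Mef2a, -0.23 to -0.17 for Myog, -0.19 to -0.13 for Myod1 and -0.20 to -0.13 for Mef2d. Myf6 was called only without cKO replicate 1. Over all genes, 2101 were called higher and 1448 lower. The count of lower genes was between 917 and 1673 when single samples were omitted, and the 3 counts under 1448 divided by 1.5 came from omitting control replicates 1, 2 and 3 (917, 934 and 960). Total-count scaling gave 2462 higher and 1057 lower, so that 70.0% of called genes were higher in place of 59.2%. With each sample left out, the log2 difference of the Myog to Myod1 ratio was -0.078 to 0.0068 and that of Mef2a to Mef2d -0.086 to 0.0068, and both turned positive without cKO replicate 2. Ratios hardly moved with a pseudocount of 0.5, and the order per length was the same under every alternative. The replicate block gave 1901 higher and 1251 lower genes, and 6 of the 7 factors lower. Same-numbered samples did not deviate together (correlations -0.0145 to -0.00449), no sample correlated best with its own number, and the labels give the numbers no meaning, so the samples were treated as unpaired. Of the 40 genes followed here (the 7, Hira and the genes named by size of change from the lists, not Mef2b, the most alike genes or those added later), 0 reversed, 9 lost their call under some alternative and 1 gained it. Why these calls moved was not tested. Differences under counting error, chiefly for Myf6, Mef2b and Twist2, could not be seen at this depth.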
